A study of Mus musculus with 8 samples.

Results

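Retinoic acid is made and destroyed by a short chain of enzymes, and 9 of the 48526 genes in the count table of the mouse heart field encode them. They were taken by gene symbol, after the Ensembl identifiers of the table had been matched to the GRCm38 annotation, and the rule used no measured value, although earlier results of these data were known when the enzymes were chosen. RNA was sequenced from the left and the right heart field of 4 wild-type C57bl6/J male embryos at stage E8.5f, early in heart looping, which gave 8 libraries, 4 per side. Each embryo (L29-3, L43-5, L46-8 and L49-3) was its own left-right pair, and embryos were not pooled. The tissue spanned the level under the headfolds down to the second somite, without the heart and the back of the embryo, and was cut along the midline. No embryo carried a mutation or received a treatment, so that the only contrast was left against right.

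Retinoic acid is a small lipid made from retinol, which is vitamin A, and it acts by binding nuclear receptors that sit on the regulatory sequences of target genes. RDH10 oxidizes retinol to retinaldehyde, the ALDH1A enzymes oxidize retinaldehyde to retinoic acid, DHRS3 returns retinaldehyde to retinol, and the CYP26 cytochromes P450 break retinoic acid down. In the early embryo retinoic acid signalling restricts the posterior extent of the second heart field, and both excess and lack of the signal disturb the heart.

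The 9 genes lie on 7 chromosomes in GRCm38. *Rdh10* (ENSMUSG00000025921) is at chr1:16105774-16133734, *Aldh1a2* (ENSMUSG00000013584) at chr9:71215789-71296243 and *Dhrs3* (ENSMUSG00000066026) at chr4:144892827-144928209, all on the plus strand. *Aldh1a3* (ENSMUSG00000015134) is at chr7:66390890-66427517, *Cyp26b1* (ENSMUSG00000063415) at chr6:84571414-84593908 and *Rdh11* (ENSMUSG00000066441) at chr12:79174337-79192293, all on the minus strand. Chromosome 19 holds the other genes, *Aldh1a1* (ENSMUSG00000053279) at chr19:20492715-20643465, *Cyp26c1* (ENSMUSG00000062432) at chr19:37685581-37693398 and *Cyp26a1* (ENSMUSG00000024987) at chr19:37697798-37701536, all on the plus strand. *Cyp26c1* and *Cyp26a1* are neighbours in the same orientation, with 4399 bases between them. In the annotation none of the 9 genes shared exon bases with another gene.

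The 5′ flanks of these neighbours are shown because *Cyp26a1* and *Cyp26c1* are adjacent paralogs whose left-right values are set side by side in the results. The window searched for each gene was the 250 bases before and 50 bases after the RefSeq start. Retinoic acid receptors bind pairs of hexamers, here AGGTCA with the variant AGTTCA or the variant GGGTCA or the variant GGTTCA, in a direct repeat with 1, 2 or 5 bases between them. Both strands were searched. In the flank of *Cyp26a1*, chr19:37697558-37697797 on the plus strand, a repeat with a gap of 5 bases is in capitals, and the flank of *Cyp26c1*, chr19:37685430-37685580 on the plus strand, held no match and has no capitals. Both are read from RefSeq, GRCm38.
Cyp26a1: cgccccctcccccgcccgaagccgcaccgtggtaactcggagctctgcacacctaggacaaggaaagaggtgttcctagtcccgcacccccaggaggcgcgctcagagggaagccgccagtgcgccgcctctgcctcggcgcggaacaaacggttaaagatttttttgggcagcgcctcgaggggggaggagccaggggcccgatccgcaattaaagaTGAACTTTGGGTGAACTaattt
Cyp26c1: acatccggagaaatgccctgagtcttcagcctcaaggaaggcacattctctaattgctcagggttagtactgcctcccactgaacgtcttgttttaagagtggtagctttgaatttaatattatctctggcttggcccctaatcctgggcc
On the strand of the hexamers the *Cyp26a1* repeat reads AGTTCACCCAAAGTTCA, at chr19:37697776-37697792, from -32 to -16 relative to the start. A repeat with a gap of 5 bases was in 0.0974% of the 32851 promoter windows of the same length, one with a gap of 1 base in 0.222% and one with a gap of 2 bases in 0.268%. A window was given for 7 of the 9 enzymes, and *Cyp26a1* was the only one of the 7 with a match. Among 27 genes that respond to retinoic acid, 16 had a window and 1 had a match. This was *Rarb*, a retinoic acid receptor, whose repeat at chr14:16575513-16575529 is read on the strand of the gene and shown for comparison.
Rarb: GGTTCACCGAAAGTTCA
These are letters found in a window and do not show that a receptor binds there.

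The libraries held between 1147446 and 3520753 counted reads, with a median of 1916167, after duplicate reads had been excluded. At this depth a gene with no read in a library could still have stood at 0.852 to 2.61 CPM (counts scaled by library size), the level of 3 counts, and this covers counting error only. Mesoderm of the second heart field was represented by *Isl1*, with a mean of 123 normalized counts, while reads of heart muscle genes were still present, with a mean of 456 for *Myl7*, an atrial myosin light chain. Markers of neural tube, endothelium and foregut were also measured. In the lists of surface ectoderm and neural crest, *Trp63* (12 reads in all) and *Sox10* (30 reads) were near 0, whereas *Epcam* (1374 reads), *Tfap2a* (473 reads) and *Ets1* (1037 reads) were well detected. Of mesothelium, *Wt1* had 29 reads and *Tcf21* 156, and of primitive blood *Hbb-bh1* had 23. In such bulk tissue fewer cells of a type and less RNA per cell cannot be told apart. Values per library are normalized counts, which are read counts divided by the DESeq2 size factor of the library, and lists of 4 values follow the embryo order L29-3, L43-5, L46-8, L49-3. A gene was tested where at least 4 libraries had 20 normalized counts or more, which kept 9744 genes. The test was the quasi-likelihood test of edgeR with the embryo as a block. P-values were adjusted over all 9744 genes by Benjamini-Hochberg, and the threshold of the study asked for 1.2-fold or more at an unadjusted p no larger than 0.05.

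Of the 9 enzymes, 5 passed the filter on low counts. *Cyp26c1*, which degrades retinoic acid, had a left excess in 3 of 4 embryos and passed the threshold of the study. *Rdh10*, *Aldh1a2*, *Rdh11* and *Cyp26a1* did not pass it. The background was 3.05% of all genes tested at this threshold, 1.63% higher and 1.42% lower on the left, against 1 of the 5 tested enzymes. With an adjusted p under 0.05, 0.0103% of genes tested passed, which was 1 gene and none of the enzymes. In edgeR 425 of the 9744 genes had an unadjusted p under 0.05. *Cyp26b1* and *Dhrs3* reached 20 normalized counts in 1 library each, *Aldh1a3* and *Aldh1a1* in none, and these 4 were not tested. The values of all 9 enzymes by embryo show *Cyp26c1* as the gene with the widest left-right distances in counts.

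**Figure D1:**
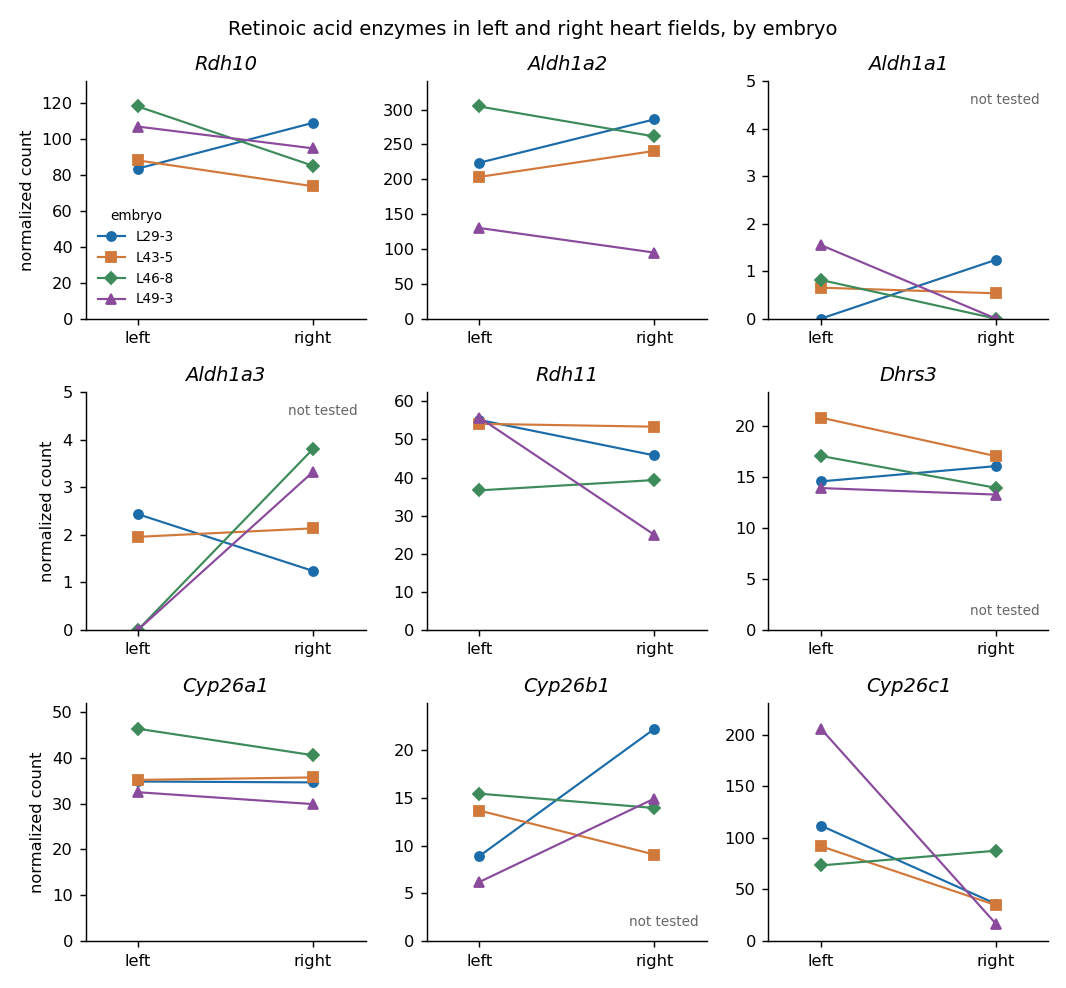
Normalized counts (vertical axis, own scale for each gene) of the 9 enzymes in the left and right heart field, with a line joining the sides of each of the 4 embryos. The lines of *Cyp26c1* run down from left to right in 3 embryos, from 206 to 16.6 in L49-3. Those of *Aldh1a2* run up in L29-3 and L43-5 and down in L46-8 and L49-3, and L49-3 lies below the other embryos.

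Synthesis begins with *Rdh10*, the retinol dehydrogenase of the early embryo. The left libraries held 83.5, 88.0, 118 and 107 normalized counts and the right libraries 109, 73.6, 85.0 and 94.7. All 8 libraries lay between 73.6 and 118, the sides overlapped, and left was the higher in 3 embryos. Left averaged 99.1 ± 16.2 and right 90.6 ± 15.0 (SD, n = 4 each). The log2 fold change of left to right was 0.13 (SE 0.147, 95% interval -0.19 to 0.45, edgeR adjusted p = 0.987), so that a left excess above 1.37-fold lay outside the interval.

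*Aldh1a2* encodes the retinaldehyde dehydrogenase that makes most retinoic acid at this stage. It was measured at 224, 203, 304 and 130 normalized counts in the left libraries, and at 286, 241, 261 and 94.7 in the right ones. Left was the lower side in L29-3 and L43-5 and the higher side in L46-8 and L49-3, and the groups overlapped. Left averaged 215 ± 71.7 and right 221 ± 86.0 (SD, n = 4 each). The log2 fold change was -0.045 (SE 0.119, 95% interval -0.30 to 0.21, edgeR adjusted p = 0.993), an interval from 0.810-fold to 1.16-fold. Its sign was not fixed, since without embryo L29-3 it was 0.074 and without L43-5 it was 0.043. The exact sign-flip permutation test over the 4 embryos (two-sided) gave p = 1, where the smallest p it can give is 1 in 8.

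The spread of *Aldh1a2* between embryos came mainly from L49-3. Embryo L49-3 held 112 normalized counts on average, against 253 in the other embryos, and both of its libraries were lower than all 6 others. The embryo means spread by 0.601 (SD, log2, n = 4, L49-3 included). On the same scale the left-right ratios had an SD of 0.374, and the median size of the left-right difference was 0.294. In L49-3 other genes of the posterior heart field and its axial level were low too, and they are named after their values were seen. *Tbx5*, a transcription factor of the posterior heart field, stood at 20.1 on the left and 19.9 on the right, against 90.0 to 164 in the other 6 libraries. *Hoxb4*, a Hox gene of the posterior hindbrain and trunk, stood at 0 and 4.99 there. The summed level of the 7 cardiomyocyte markers was 578 and 1996 in L49-3, against 1978 to 5831 in the other libraries. The part of these tissues in the *Aldh1a2* level of L49-3 was not tested.

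The other retinaldehyde dehydrogenases were barely detected. *Aldh1a3*, known from the developing eye and nose, had 16 reads over the 8 libraries, between 0 and 4 per library. *Aldh1a1*, known from the eye, had 5 reads, with 0 or 1 in each library. Both stayed at or near the limit of what a count of 0 allows, and no fold is given for them. Reads of retinaldehyde dehydrogenases in the heart field were therefore nearly all from *Aldh1a2*, which had 1991.

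*Rdh11* and *Dhrs3* encode reductases that can turn retinaldehyde back into retinol. For *Rdh11*, normalized counts in left libraries were 55.1, 54.1, 36.6 and 55.7, and those in right libraries 45.8, 53.4, 39.3 and 24.9. Left was higher in 3 embryos, by a wide margin in L49-3 alone, and the sides overlapped. Left averaged 50.4 ± 9.21 and right 40.9 ± 12.1 (SD, n = 4 each). The log2 fold change was 0.25 (SE 0.207, 95% interval -0.21 to 0.70, edgeR adjusted p = 0.987). *Dhrs3*, a gene that retinoic acid itself induces in many tissues, had 144 reads in all. Its left libraries stood at 14.6, 20.9, 17.1 and 13.9 normalized counts and its right libraries at 16.1, 17.1, 13.96 and 13.3. The sides overlapped, at 16.6 ± 3.14 left and 15.1 ± 1.77 right (SD, n = 4 each), and the gene was below the filter.

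Among the degrading enzymes, *Cyp26a1*, with the repeat shown above in its 5′ flank, was nearly level. Normalized counts were 34.9, 35.2, 46.4 and 32.5 in the left libraries, beside 34.7, 35.8, 40.6 and 29.9 in the right libraries. Left averaged 37.2 ± 6.22 and right 35.2 ± 4.39 (SD, n = 4 each). The log2 fold change was 0.065 (SE 0.190, 95% interval -0.35 to 0.48, edgeR adjusted p = 0.993), and the 4 embryo ratios lay between -0.022 and 0.18. In these 4 embryos the ratios were the narrowest of the 5 tested enzymes, with an SD of 0.0912 in log2. The gene had 18 to 67 reads per library, and this SD is smaller than the SE of the fit. Whether so narrow a spread is a trait of the gene was not tested.

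*Cyp26b1*, best known from limb, gonad and hindbrain, had 110 reads and was below the filter. In the left libraries it had 8.92, 13.7, 15.5 and 6.19 normalized counts, and in the right libraries 22.3, 9.07, 13.96 and 15.0. Right was higher in 2 embryos and left in 2. Left averaged 11.1 ± 4.27 and right 15.1 ± 5.46 (SD, n = 4 each), a difference smaller than the spread within the right side.

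*Cyp26c1* is known from the anterior hindbrain and the cranial mesoderm. The left heart fields held 112, 91.9, 73.3 and 206 normalized counts, against 35.9, 34.7, 87.6 and 16.6 in the right heart fields. The sides were apart in 3 embryos and reversed in L46-8, whose right library was higher than its left, so that the groups overlapped. Left averaged 121 ± 58.9 and right 43.7 ± 30.5 (SD, n = 4 each). The log2 fold change was 1.35 (SE 0.372, 95% interval 0.54 to 2.16), which is 2.55-fold, from 1.45-fold to 4.47-fold. The edgeR test gave an unadjusted p = 0.00354 and an adjusted p = 0.987, so that the gene passed the threshold of the study and not the correction for all genes. The edgeR SE, interval and p also draw on the variance of the other genes tested. The exact sign-flip permutation test over the 4 embryos (two-sided), which uses the ratios of this gene alone, gave p = 0.25.

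The size of the *Cyp26c1* difference varied widely between embryos. By embryo, the log2 ratio of left to right took the values 1.62, 1.38, -0.26 and 3.55 (SD 1.56, n = 4). L49-3 held both the highest left and the lowest right library. Leaving out L49-3 lowered the log2 fold change to 0.90, and leaving out L46-8 raised it to 1.97, with an edgeR adjusted p = 0.0388. In contrast to *Aldh1a2*, the embryo means of *Cyp26c1* were close (SD 0.220, log2, n = 4), and the median size of the left-right difference was 1.502. The hindbrain gene *Egr2*, described with the neural markers at the end, was also higher on the left in L29-3, L43-5 and L49-3 and not in L46-8, and its part in the *Cyp26c1* difference was not tested. The plot of ratios by embryo shows this difference in spread between the enzymes.

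**Figure D2:**
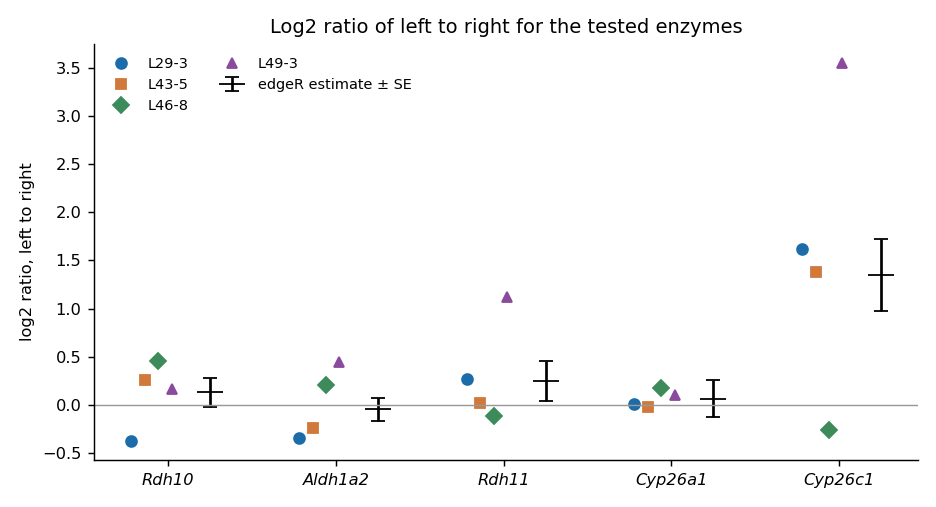
Log2 ratio of left to right (vertical axis) for the 5 tested enzymes, with a symbol for each of the 4 embryos and the edgeR estimate with its standard error beside them. *Cyp26c1* reaches 3.55 in L49-3 and lies at -0.26 in L46-8, whereas the *Cyp26a1* ratios stay between -0.022 and 0.18.

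The genes around *Cyp26c1* on chromosome 19 were measured to describe the locus, 3 tested genes on each side, and they were chosen after their values were seen. *Exoc6*, a subunit of the exocyst that ends 1521 bases before *Cyp26c1*, had a log2 fold change of 0.11 (SE 0.245, edgeR adjusted p = 0.988). *Cyp26a1* on the other side had 0.065, as given above. *Hhex*, a homeobox gene of endoderm and endothelium further upstream, had a log2 fold change of 0.0034 (SE 0.202). *Rbp4*, the retinol carrier of the blood, lies downstream and had a log2 fold change of -0.68 (SE 0.341, edgeR adjusted p = 0.987). Its log2 ratios by embryo were -2.34, 0.021, -0.11 and -0.086, so that only L29-3 was far from 0. In L49-3 it had 2 reads on each side. None of the 6 genes passed the threshold of the study, and whether their values differ from that of *Cyp26c1* was not tested.

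Levels of different enzymes were compared as TPM, which divides the reads by the exon length of the gene and scales every library to the same total. *Aldh1a2* was the highest with 159 ± 57.3 TPM, followed by *Cyp26c1* with 76.7 ± 13.4, *Rdh10* with 37.3 ± 2.38 and *Cyp26a1* with 30.02 ± 4.63 (mean ± SD over 4 embryos, sides averaged). *Rdh11* had 21.8 ± 5.04 TPM, *Dhrs3* 8.96 ± 1.81, *Cyp26b1* 4.01 ± 0.819, *Aldh1a3* 0.661 ± 0.0941 and *Aldh1a1* 0.198 ± 0.0431. The order was the same with the length of the coding transcript. Embryo ranges overlapped between *Aldh1a2* and *Cyp26c1*, between *Rdh10* and *Cyp26a1* and between *Cyp26a1* and *Rdh11*. Within embryos, *Aldh1a2* was above *Cyp26c1* in 3 of 4, whereas *Rdh10*, *Cyp26a1* and *Rdh11* kept this order in each of the 4. With the sides averaged, the ranges of *Cyp26c1* and *Rdh10* (2.06-fold apart), of *Rdh11* and *Dhrs3* (2.44-fold) and of *Dhrs3* and *Cyp26b1* (2.23-fold) did not overlap, and *Aldh1a3* and *Aldh1a1*, with few reads, came last. By library, *Cyp26c1* was above *Rdh10* in 6 of 8. It was below *Rdh10* in the right libraries of L29-3 (34.0 against 43.4 TPM) and L49-3 (14.6 against 34.8 TPM). The 3 pairs with a fold given were each in the same order in 4 of 4 embryos. So were *Rdh10* with *Cyp26a1* (6 of 8 libraries) and *Cyp26a1* with *Rdh11* (8 of 8). For each of these pairs the exact sign-flip permutation test gives a p of 1 in 8, the smallest possible. The order was taken from the same values, and this p follows whenever 4 of 4 embryos go the same way. The test thus adds nothing to the count of embryos.

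**Figure D3:**
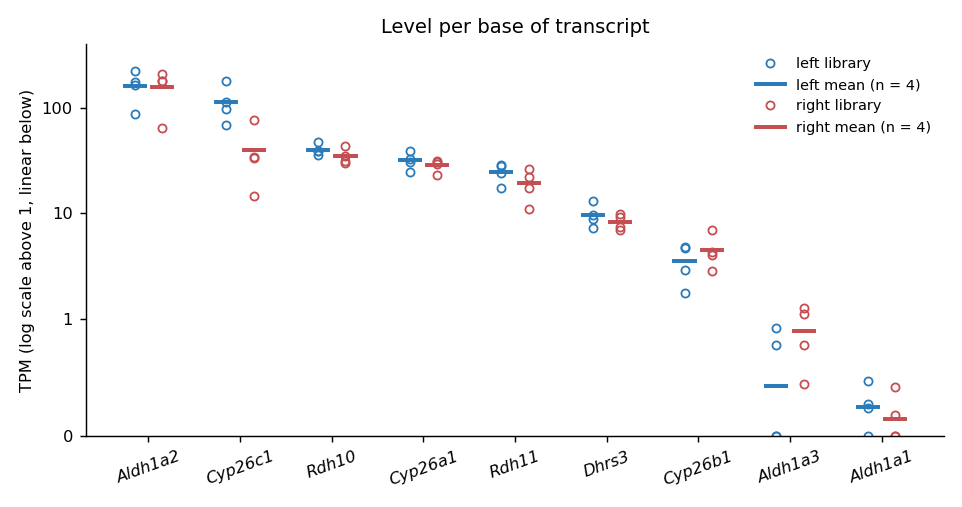
TPM of the 9 enzymes (vertical axis, logarithmic above 1 and linear below) in each left and right library, with a bar for the mean of 4 libraries per side. *Aldh1a2* is the highest on both sides, and *Cyp26c1* is at 114 TPM on the left and 39.7 TPM on the right.

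The sum of the 3 degrading enzymes was set beside *Aldh1a2* in each library, in TPM. The ratio of *Cyp26* sum to *Aldh1a2* came to 0.843, 0.812, 0.507 and 2.36 in the left libraries and 0.334, 0.372, 0.634 and 0.655 in the right libraries. It was higher on the left in the same 3 embryos as *Cyp26c1*, and only the left library of L49-3 held more *Cyp26* than *Aldh1a2* transcript. *Cyp26c1* made up 61.5% to 87.0% of the sum on the left and 34.7% to 68.5% on the right. These are transcript levels, and enzyme activity was not measured.

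**Figure D4:**
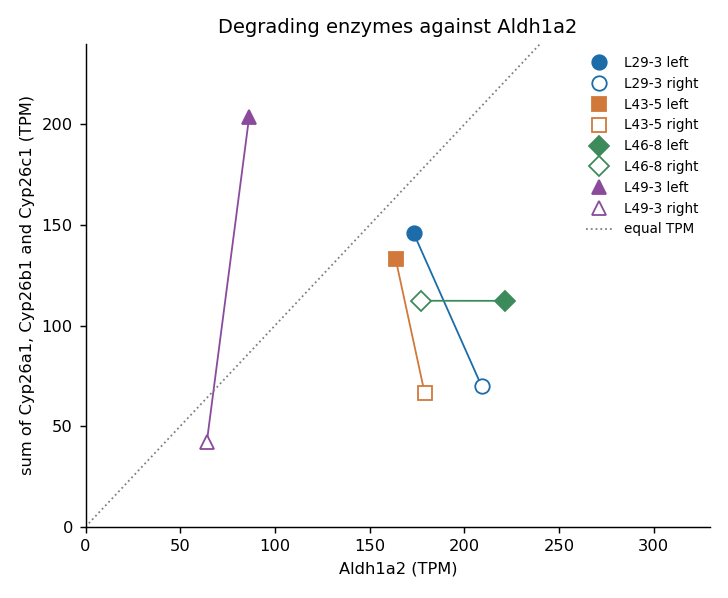
Sum of *Cyp26a1*, *Cyp26b1* and *Cyp26c1* (vertical axis, TPM) against *Aldh1a2* (horizontal axis, TPM) in the 8 libraries, with a line joining the left (filled) and right (open) library of each embryo. Only the left library of L49-3, at 204 TPM against 86.4, lies above the dotted line of equal TPM.

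Across the 8 libraries *Aldh1a2* and *Cyp26a1* varied together (Pearson r = 0.785, log2 scale), whereas *Aldh1a2* and *Cyp26c1* did so little (r = 0.163). *Cyp26a1* and *Cyp26c1*, though neighbours, had r = 0.260, and *Cyp26c1* and *Rdh11* had r = 0.658. These values describe 8 libraries that come in pairs from 4 embryos and share their depth and dissection. Among all genes tested, the pattern most like *Aldh1a2* was that of *Daam1*, a formin (r = 0.978), then of *Golt1b* (r = 0.973) and *Kitl*, the ligand of the KIT receptor (r = 0.967). For *Cyp26c1* it was *Cxcl12*, a chemokine (r = 0.980), then *Pik3r1*, a regulatory subunit of phosphoinositide kinase (r = 0.967), and *Tcf4*, a transcription factor (r = 0.950). *Cxcl12* itself had a log2 fold change of 0.38 (edgeR adjusted p = 0.987). For *Cyp26a1* it was *Arhgap28* (r = 0.942), for *Rdh10* it was *Pigo* (r = 0.981), and for *Rdh11* it was *Mmd* (r = 0.962).

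The rest of the pathway was read from lists of binding proteins and receptors, of other retinoid enzymes and of genes that respond to retinoic acid. In the list of binding proteins, transport and receptors, 13 of 17 genes were tested, of which none was higher and 3 were lower on the left by the threshold of the study (*Crabp2*, *Stra6* and *Rarb*), with a median log2 fold change of -0.13 against -0.0042 for all genes tested. Its most abundant genes included *Crabp1*, a retinoic acid binding protein, with 420 normalized counts and a log2 fold change of 0.27, and *Rxra*, a nuclear receptor, with 160. Of 25 genes of other retinoid enzymes, counted with the P450 reductase *Por*, 5 were tested, 0 passed in either direction, and 8 had no read. *Adh5* (267 normalized counts), *Por* (103) and *Rdh13* (63.2) led this list, with log2 fold changes of -0.016, 0.045 and -0.098.

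Of 27 genes that respond to retinoic acid, 21 were tested. By the threshold of the study 5 of them were lower on the left and 0 were higher, which is 23.8% of those tested beside 1.42% lower among all genes. Their median log2 fold change was -0.086, and 6 of the 21 were above 0. *Crabp2*, *Stra6* and *Rarb* belong to this list as well as to that of binding proteins and receptors, so that the counts are not separate. The list was chosen with earlier results of these data known.

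*Crabp2*, a retinoic acid binding protein of the cytoplasm, was lower on the left in 3 embryos. Its level was 225, 232, 138 and 333 normalized counts in left libraries and 192, 408, 322 and 522 in right libraries. Its log2 fold change was -0.63 (SE 0.167, edgeR unadjusted p = 0.00257, adjusted p = 0.987).

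*Rarb*, the receptor gene whose repeat is printed above, was lower on the left in 3 embryos, at 90.6 ± 13.1 against 119 ± 21.3 normalized counts (SD, n = 4 each, log2 fold change -0.40, SE 0.153, edgeR adjusted p = 0.987). *Stra6*, a retinol transporter of the cell membrane, stood at 81.9 ± 13.0 against 113 ± 21.9 (log2 fold change -0.40, SE 0.156, edgeR adjusted p = 0.987). *Tshz1*, a zinc finger factor, stood at 119 ± 7.13 against 155 ± 33.3 (log2 fold change -0.36, SE 0.131, edgeR adjusted p = 0.987). *Stra6* and *Tshz1* were each lower on the left in 3 of 4 embryos. The threshold was lost without 1 embryo for *Rarb* (L43-5, L46-8 or L49-3), *Stra6* (L29-3 or L49-3) and *Tshz1* (L43-5 or L49-3), and it was kept in each such fit for *Crabp2*. Without L29-3 the log2 fold change of *Crabp2* was -0.89 with an edgeR adjusted p = 0.0299, and with no filter on low counts its edgeR adjusted p was 1.72e-07. The most abundant genes of the list, *Meis2* (672 normalized counts), *Meis1* (310) and *Crabp2* (297), included *Meis* factors with log2 fold changes of -0.045 and -0.040.

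*Cyp26c1* and *Rarb* are also genes of neural tissue, so markers of this tissue were read by side. Of 10 neural tube markers 7 were tested, 2 were lower and 0 higher on the left by the threshold of the study, beside 1.42% lower and 1.63% higher among all genes. With DESeq2 0 of them passed it in the lower direction. The median log2 fold change of the 7 was -0.28, and that of *Sox2*, a gene of neural progenitors, was -0.077 (edgeR unadjusted p = 0.643). *Sox1* and *Pax6*, transcription factors of neural progenitors, had log2 fold changes of -0.98 (edgeR unadjusted p = 0.0167) and -0.83 (edgeR unadjusted p = 0.0142), with an adjusted p of 0.987 for both. Each was lower on the left in 3 embryos, the exception being L29-3. The summed level of the 10 markers was 417 to 977 on the left and 566 to 1099 on the right. Of the 5 hindbrain markers 3 were tested and 0 passed, and their summed level was 167 to 344 on the left and 148 to 274 on the right.

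*Egr2*, a marker of rhombomeres in the hindbrain, was below the filter and is named after its values were seen. Left libraries had 63, 34, 1 and 12 of its reads, right libraries 9, 7, 1 and 1. It was thus higher on the left in the 3 embryos in which *Cyp26c1* was higher on the left. The part of hindbrain tissue in the *Cyp26c1* difference, and that of neural tissue in the difference of the retinoic acid responsive genes, was not tested.

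**Figure D5:**
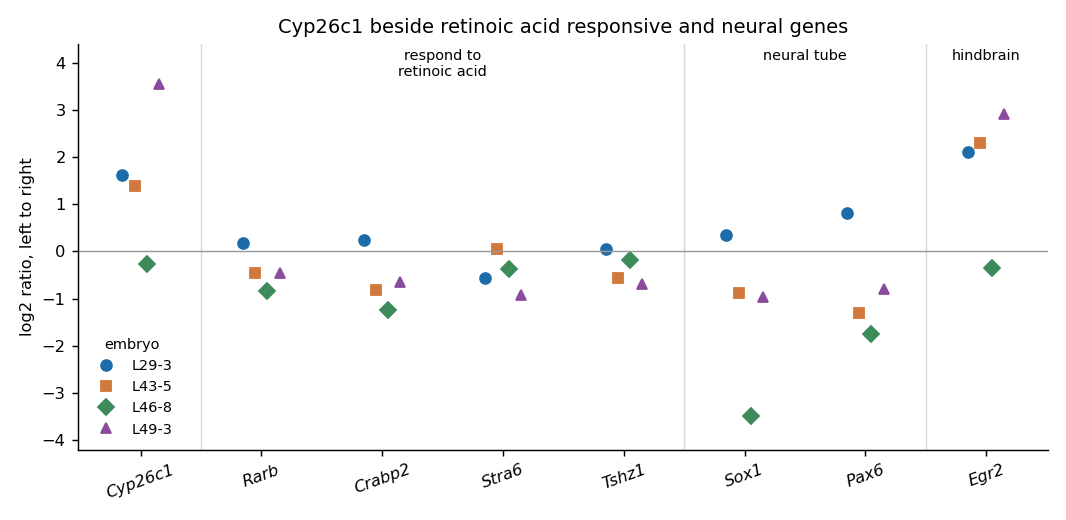
Log2 ratio of left to right (vertical axis) in each of the 4 embryos for *Cyp26c1*, 4 retinoic acid responsive genes past the threshold of the study, 2 neural tube genes and 1 hindbrain gene. *Egr2* lies above 0 in L29-3, L43-5 and L49-3 as *Cyp26c1* does, while *Rarb*, *Crabp2* and *Tshz1* lie below 0 in L43-5, L46-8 and L49-3.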

How the data were processed

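The authors aligned paired reads to GRCm38/mm10 with Hisat2, excluded duplicates and deposited raw counts per gene from featureCounts of the Subread package. The strand setting and the aligner version are not given in the sources used here. The submitters' processing notes also list DESeq2 and limma 3.40.6. The 8 libraries, with 1147446 to 3520753 counts each, are poly-A RNA of left and right heart fields, paired by embryo. Libraries are single samples per side and embryo, so that p-values rest on 4 embryos. The edgeR p-values, SE and intervals also draw on the variance of all genes tested, not on the embryo spread of the gene alone.

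Ensembl identifiers were matched to GENCODE vM21, which gave a symbol for 48144 of 48526 rows. The members and the gene lists were chosen with earlier results of these data known. Genes with at least 20 DESeq2-normalized counts in at least 4 libraries (9744) were tested with edgeR 4.0.16 (quasi-likelihood, TMM, side plus embryo) in R 4.3.3, with Benjamini-Hochberg adjustment. The filter and the threshold (fold of at least 1.2, p of at most 0.05) follow the study. Ratios per embryo are log2 of TMM-scaled CPM plus 0.5. TPM used the union of exons. Promoters came from RefSeq. The alternatives were a fit without the filter, a minimum of 10 counts in each library, DESeq2 size factors, DESeq2 1.42.0, limma-voom 3.58.1, no block, and leaving out each embryo. The model was tested on simulated data.

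The pairing by embryo comes from the labels. Deviations from the side means correlated at 0.165, 0.190, -0.0158 and 0.437 between the sides of L29-3, L43-5, L46-8 and L49-3. Between sides of different embryos the values ran from -0.389 to 0.255. The left side of L46-8 correlated more with the right sides of L29-3 (0.255) and L43-5 (0.229) than with its own. The left side of L29-3 did so with the right side of L43-5 (0.191). These values alone thus do not show the pairing of L46-8 and L29-3. Named genes were the members, the genes of the 3 pathway lists past the threshold or among the 3 highest of a list, and the 3 genes most correlated with each tested member; some genes counted in the lists are not reported here by name. Between any 2 libraries chi-square divided by its degrees of freedom was at least 1.86, so that none was counted as a repeat.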

Additional observations from a re-analysis of the deposited data

Results flagged for a closer look

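The left library of embryo L46-8 stood apart from the other left libraries for *Rdh11*, at 36.6 normalized counts against 54.1 for the nearest of the others, by Dixon's test at the 95% level. The test was applied to 21 groups of 4 values, of which chance marks about 1 in 20. A group held the left libraries, the right libraries or the left-right ratios of a gene. The ratios derive from the libraries, so that the groups are not independent.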

How the results depend on the processing

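*Cyp26c1* kept its left excess and stayed within an unadjusted p of 0.05 in all 10 alternatives, with log2 fold changes of 0.90 (without L49-3) to 1.97 (without L46-8). Its edgeR adjusted p was 5.43e-13 with no filter and 0.0388 without L46-8, and the cause was not tested. It was the only enzyme past the threshold of the study in each. *Aldh1a2* changed sign, with log2 fold changes from -0.15 to 0.074 when an embryo was left out (0.074 without L29-3, 0.043 without L43-5). The number of genes with an adjusted p under 0.05, 1 with edgeR, was 34 with no filter, 2 with DESeq2, 0 with at least 10 counts in every library (432 at an unadjusted p under 0.05), 0 without the replicate block (320 at an unadjusted p under 0.05), and 1 to 5 when an embryo was left out. Past the threshold of the study, 297 genes became 687 with no filter (23873 genes tested) and 59 with DESeq2, and without the block there were 233.

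The edgeR adjusted p of *Crabp2* was 1.72e-07 with no filter. The 5 lower retinoic acid responsive genes became 10 with no filter, 2 with DESeq2 (*Crabp2* among them) and 3 to 6 when an embryo was left out (3 without L43-5 or L49-3). The higher ones, 0 with all embryos, became 0 to 2 when an embryo was left out, namely *Tgm2* and *Nr2f2* without L29-3 and *Nr2f1* without L43-5. The 2 lower neural tube genes became 1 with at least 10 counts in every library, 0 with DESeq2, 1 without the replicate block, and 1 to 3 when an embryo was left out (1 without L46-8 or L49-3). Depth limits *Cyp26b1*, *Dhrs3*, *Aldh1a3* and *Aldh1a1*, which were not tested. The causes of these changes were not tested.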

Other observations

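Markers of the tissues around the heart field were read by side in lists. No gene of lateral plate and second heart field (8 of 8 tested), paraxial and head mesoderm (5 of 9), surface ectoderm (3 of 6), foregut endoderm (6 of 7), cardiomyocytes (6 of 7), endothelium (5 of 7) or neural crest (2 of 6) passed the threshold of the study in edgeR. Their median log2 fold changes ran from -0.21 for paraxial and head mesoderm to 0.024 for endothelium. No marker of mesothelium or of primitive blood passed the filter on low counts.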
